A study of Mus musculus with 8 samples.

Results

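The genes described here encode the protein import machinery of mitochondria and the factors that assemble respiratory complex I. They were taken by name, as every gene in the count files whose symbol starts with Timm, Tomm or Ndufaf and is not a pseudogene, which gave 33 of 24460 genes. By role they comprised 9 genes of the TOM complex, 1 cytosolic co-chaperone (Tomm34), 6 genes of the TIM23 complex, 8 genes of the TIM22 complex and the small TIM chaperones, and 8 complex I assembly genes, one of which is Timmdc1. The last, Tomm6os, carries the name of an antisense transcript of Tomm6 and was not placed in a role. A pair of related genes stand in the files under older clone names, 1810026J23Rik (Timm29) and 1810043H04Rik (Ndufaf8), and were not members by this rule.

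RNA-Seq was performed on cultured mouse embryonic fibroblast (MEF) cells left without ligand (0 µM, 3 libraries) or exposed to 2 µM (3 libraries) or 10 µM (2 libraries) RHPS4, a ligand of G-quadruplexes (G4), the folds of guanine-rich nucleic acid, which the study used to stabilize such folds in mitochondria. The labels give no exposure time for these libraries, and they do not say whether replicates were separate cultures, so that p-values measure the spread between these libraries, which may be technical. Each value is a number of read fragments counted per gene, given here as CPM, the count scaled to the size of its library after TMM normalization, which brings libraries to a common scale. The question addressed by the series is how the ligand changes mitochondrial gene expression, and the comparisons below ask whether the nuclear genes for import and complex I assembly differed in mRNA level between the doses.

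Almost all mitochondrial proteins are made in the cytosol and enter through the TOM complex of the outer membrane, after which the TIM23 complex takes those with a cleavable presequence into the matrix or inner membrane. Carrier-type membrane proteins are instead escorted across the intermembrane space by small TIM chaperones to the TIM22 complex. Complex I, the largest complex of the respiratory chain, is built from nuclear and mtDNA-encoded subunits with the help of assembly factors that are not part of the finished enzyme, so that all of its nuclear subunits and factors pass through these translocases.

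The libraries held 10455965 to 26688121 counts, and 3 counts corresponded to 0.119 to 0.311 CPM. Such limits cover counting error only. The share of counts from mtDNA was 13.2 to 14.4% at 0 µM, 7.4 to 8.26% at 2 µM and 5.33 to 6.32% at 10 µM. The summed level of 8 fibroblast markers, all with counts in every library, lay between 11013 and 13133 CPM, with the 0 µM libraries (12597 to 13133 CPM) above both treated groups, and those of macrophage, endothelial, epithelial and muscle markers stayed at or under 10.2 CPM. In bulk samples, fewer cells of a type and less RNA per cell cannot be told apart. The first 0 µM library stood apart from the other controls, with a chi-square per degree of freedom of 18.4 and 24.1 against them, whereas these differed from each other by 3.62. It had the highest CPM of the 3 controls in 28 of the 31 members tested (90.3%), compared with 44.2% of all 14296 genes tested, and the calls made without it are given beside those with all libraries.

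Promoter windows of 250 bases before to 50 bases after the start site were found in RefSeq (GRCm38.p6) for 29 of the 33 members. Those of 6 members are printed because they hold a motif searched and belong to genes that differed between doses. The windows of the other genes that differed, Timm9, Tomm5, Tomm40 and Ndufaf3, hold none of the motifs. Tomm34 has a further, overlapping window with matches to the same motifs, which is not printed. Capitals mark a match to the ETS core CCGGAAG in Timm10, Tomm70a and Timm23, to the NRF1 core GCGCANGCG in Ndufaf4 and Timm13, and in Tomm34 first to a G4 motif (4 runs of at least 3 G, separated by 1 to 7 bases, here on the strand opposite to the gene) and then to the ETS core. Matches on the opposite strand appear as their reverse complement, and overlapping matches (in Timm10 and Ndufaf4) form 1 block. ETS factors and NRF1 are transcription factors known for their part in the expression of nuclear genes for mitochondrial proteins.
Timm10, chr2:84826771-84827070, plus strand: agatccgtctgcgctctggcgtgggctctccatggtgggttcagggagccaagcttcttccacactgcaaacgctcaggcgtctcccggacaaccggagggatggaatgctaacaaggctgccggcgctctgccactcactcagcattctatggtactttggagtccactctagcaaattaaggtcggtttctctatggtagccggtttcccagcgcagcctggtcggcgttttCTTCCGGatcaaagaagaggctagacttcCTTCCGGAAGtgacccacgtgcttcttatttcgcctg
Tomm70a, chr16:57121464-57121763, plus strand: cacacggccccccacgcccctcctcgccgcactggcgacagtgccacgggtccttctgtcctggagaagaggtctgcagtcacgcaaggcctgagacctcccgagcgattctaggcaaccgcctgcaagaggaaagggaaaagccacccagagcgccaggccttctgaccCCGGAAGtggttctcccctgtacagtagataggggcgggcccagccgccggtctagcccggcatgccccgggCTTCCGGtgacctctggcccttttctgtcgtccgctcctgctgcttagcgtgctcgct
Timm23, chr14:32201842-32202141, minus strand: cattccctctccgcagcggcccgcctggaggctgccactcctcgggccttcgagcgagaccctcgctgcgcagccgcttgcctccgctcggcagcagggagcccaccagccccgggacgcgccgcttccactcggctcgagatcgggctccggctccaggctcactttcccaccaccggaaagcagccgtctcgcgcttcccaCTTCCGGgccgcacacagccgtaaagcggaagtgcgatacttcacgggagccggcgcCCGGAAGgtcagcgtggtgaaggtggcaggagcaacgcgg
Ndufaf4, chr4:24897833-24898132, plus strand: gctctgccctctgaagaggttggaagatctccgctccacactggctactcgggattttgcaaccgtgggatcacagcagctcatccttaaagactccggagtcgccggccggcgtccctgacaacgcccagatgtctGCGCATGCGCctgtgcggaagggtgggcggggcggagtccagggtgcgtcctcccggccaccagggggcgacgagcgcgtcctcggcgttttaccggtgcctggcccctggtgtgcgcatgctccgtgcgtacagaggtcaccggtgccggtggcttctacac
Timm13, chr10:80900920-80901219, minus strand: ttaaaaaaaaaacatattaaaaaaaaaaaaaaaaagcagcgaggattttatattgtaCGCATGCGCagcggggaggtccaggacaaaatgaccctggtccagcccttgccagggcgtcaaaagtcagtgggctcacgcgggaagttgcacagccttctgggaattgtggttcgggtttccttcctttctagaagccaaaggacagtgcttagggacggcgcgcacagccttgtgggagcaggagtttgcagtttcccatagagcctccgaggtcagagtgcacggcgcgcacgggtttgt
Tomm34, chr2:164071120-164071419, minus strand: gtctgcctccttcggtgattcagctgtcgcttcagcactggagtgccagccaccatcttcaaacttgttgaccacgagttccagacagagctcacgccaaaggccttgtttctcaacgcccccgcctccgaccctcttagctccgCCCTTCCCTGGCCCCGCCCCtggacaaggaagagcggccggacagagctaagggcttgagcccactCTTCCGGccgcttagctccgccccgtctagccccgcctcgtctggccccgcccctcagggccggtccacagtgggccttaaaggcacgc

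The ETS core was present on either strand in 10 of the 29 members with a window (34.5%), compared with 18.5% of the 10688 tested genes that have one. These were Ndufaf1, Timm10, Timm10b, Timm23, Timm8a2, Timm8b, Timmdc1, Tomm22, Tomm34 and Tomm70a. The NRF1 core was present in 5 members (17.2%, against 14.4% of tested genes), namely Ndufaf4, Ndufaf5, Timm13, Timm8b and Tomm20. A G4 motif was found in 4 members (13.8%, against 31.1% of tested genes), namely Timm50, Timmdc1, Tomm34 and Tomm6. The YY1 core AAGATGGC occurred in Timm50 alone (3.45%, against 4.98%), and the C/EBP-ATF element TGATGNAA in no member (against 2.81%). The median GC content was 60.0% in the member windows and 60.3% in those of tested genes. A match describes letters in the window and is not evidence of binding.

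At 2 µM RHPS4 most import and assembly genes lay above the untreated level by a small amount, and at 10 µM they lay on either side of it. Of 31 members tested, 29 had a positive log2 fold change at 2 µM against 0 µM, with a median of 0.21 (a fold of 1.15), beside a median of -0.01 and 48.2% positive values over all genes tested. At 10 µM against 0 µM, 21 of 31 were positive with a median of 0.07 (all genes 0.02, 52.1% positive). Between 10 µM and 2 µM, 20 of 31 were negative with a median of -0.20 (all genes 0.03, 53.1% positive). The comparisons share libraries with each other and are not independent. Tomm20l, a Tomm20-like gene (0 to 2 counts per library), and Timm8a2, a Timm8a-like gene (1 to 6 counts), were too low to test.

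**Figure D1:**
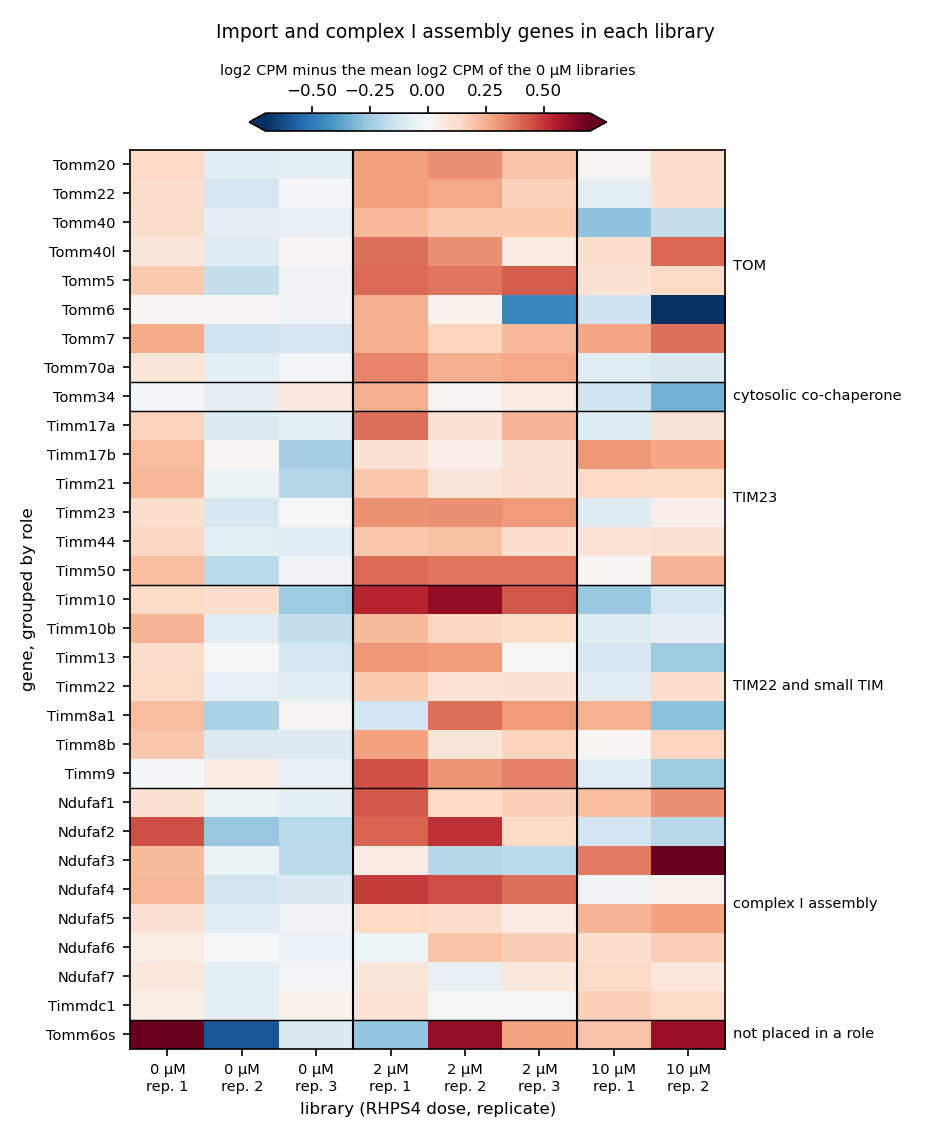
The heat map shows, for the 31 members tested (rows, grouped by role) and the 8 libraries (columns), the log2 CPM minus the mean log2 CPM of the 0 µM libraries, on a colour scale from blue (lower) to red (higher) that ends at 0.7 either way. The 2 µM columns are red for nearly all rows, the 10 µM columns are mixed, and the first 0 µM library is redder than the other controls.

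In edgeR's quasi-likelihood test with Benjamini-Hochberg adjustment over all genes, 6 of 31 members (19.4%) were higher at 2 µM than at 0 µM at an adjusted p under 0.05, beside 1.51% of all genes. They were Timm10, Ndufaf4, Tomm5, Timm9, Tomm70a and Timm23. None was lower (all genes 2.65%), and none reached the stricter limit for a differentially expressed gene (DEG), an adjusted p under 0.01 with a fold change over 1.5 (all genes 0.497%). DESeq2 called 5 members at an adjusted p under 0.05, all higher, and no DEG among them. It called 598 genes in either direction, beside 595 in edgeR. That is 2.44% of all 24460 genes in the files, a larger base than the 14296 genes tested in edgeR, so that the shares of the 2 tools are not comparable. These were Ndufaf4, Timm10, Timm50, Tomm5 and Tomm70a. At an unadjusted p under 0.05 the count in edgeR was 13, all of them higher, beside 10.1% of all genes that were higher at that limit. Every 2 µM library lay above every 0 µM library in 11 of 31 members (all genes 12.7%), and in none did every one lie below (all genes 12.9%). The count depended on single libraries. Without the first 0 µM library 16 members were called, all higher, while the share of all genes called rose from 4.16% to 14.1%. The 10 members added were Ndufaf2, Timm10b, Timm17a, Timm44, Timm50, Timm8b, Tomm20, Tomm22, Tomm40 and Tomm7. Without the second or the third 0 µM library, or without the first, the second or the third 2 µM library, the count was 0, and 0.519 to 1.99% of all genes were called, with 8 to 15 members and 13.5 to 22.1% of all genes at an unadjusted p under 0.05. Leaving out either 10 µM library changes the filter, the scaling and the shared spread of this comparison. The median log2 fold change of the members was then 0.22. It ran from 0.15 to 0.30 with a 0 µM library left out, and from 0.19 to 0.21 with a 2 µM library left out.

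At 10 µM no member differed from 0 µM at an adjusted p under 0.05 in edgeR's test or in DESeq2, beside 6.81% of all genes that were higher and 7.11% that were lower, and none was a DEG (all genes 3.09%). At an unadjusted p under 0.05 there were 7 members in edgeR, of which 5 were higher (all genes 29.4% in either direction and 14.8% higher). In DESeq2 there were 5, beside 3382 genes, which is 14.3% of the 23612 genes with a p there, again a larger base than in edgeR. Every 10 µM library lay above every 0 µM library in 9 members (all genes 22.9%) and below in 5 (all genes 20%), shares of 29.0% and 16.1% that are near those of all genes. Without the first 0 µM library 4 members were called (12.9%), all higher, beside 19.4% of all genes called in either direction, namely Tomm7 (log2 fold change 0.43 ± 0.08 SE, adjusted p = 0.00296), Timm17b (0.37 ± 0.11), Ndufaf3 (0.62 ± 0.18) and Ndufaf5 (0.29 ± 0.09).

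Between the doses, 8 of 31 members (25.8%) were lower at 10 µM than at 2 µM, beside 11.9% of all genes, and 1 was higher (all genes 11.5%). Those that fell were Timm9, Timm10, Tomm40, Tomm70a, Ndufaf4, Timm23, Tomm34 and Timm13, and the one that rose was Ndufaf3. Only Timm10 was a DEG (1 of 31, all genes 5.51%). All 10 µM libraries lay below all 2 µM libraries in 16 members (all genes 24.9%) and above in 5 (all genes 27%). The count of called members was 15 without the first 0 µM library (all genes 29.0%), 6 without the second 2 µM library (all genes 14.2%) or the second 10 µM library (all genes 11.1%), and 7 to 10 without any other library (all genes 16.0 to 22.4%), beside 9 members and 23.4% of all genes with all libraries. The 6 members added without the first 0 µM library, all lower, were Ndufaf2, Timm10b, Timm50, Tomm20, Tomm22 and Tomm5. The call of Timm10 as a DEG was lost without the first or the second 2 µM library or the second 10 µM library, although its adjusted p stayed under 0.05 in every fit.

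**Figure D2:**
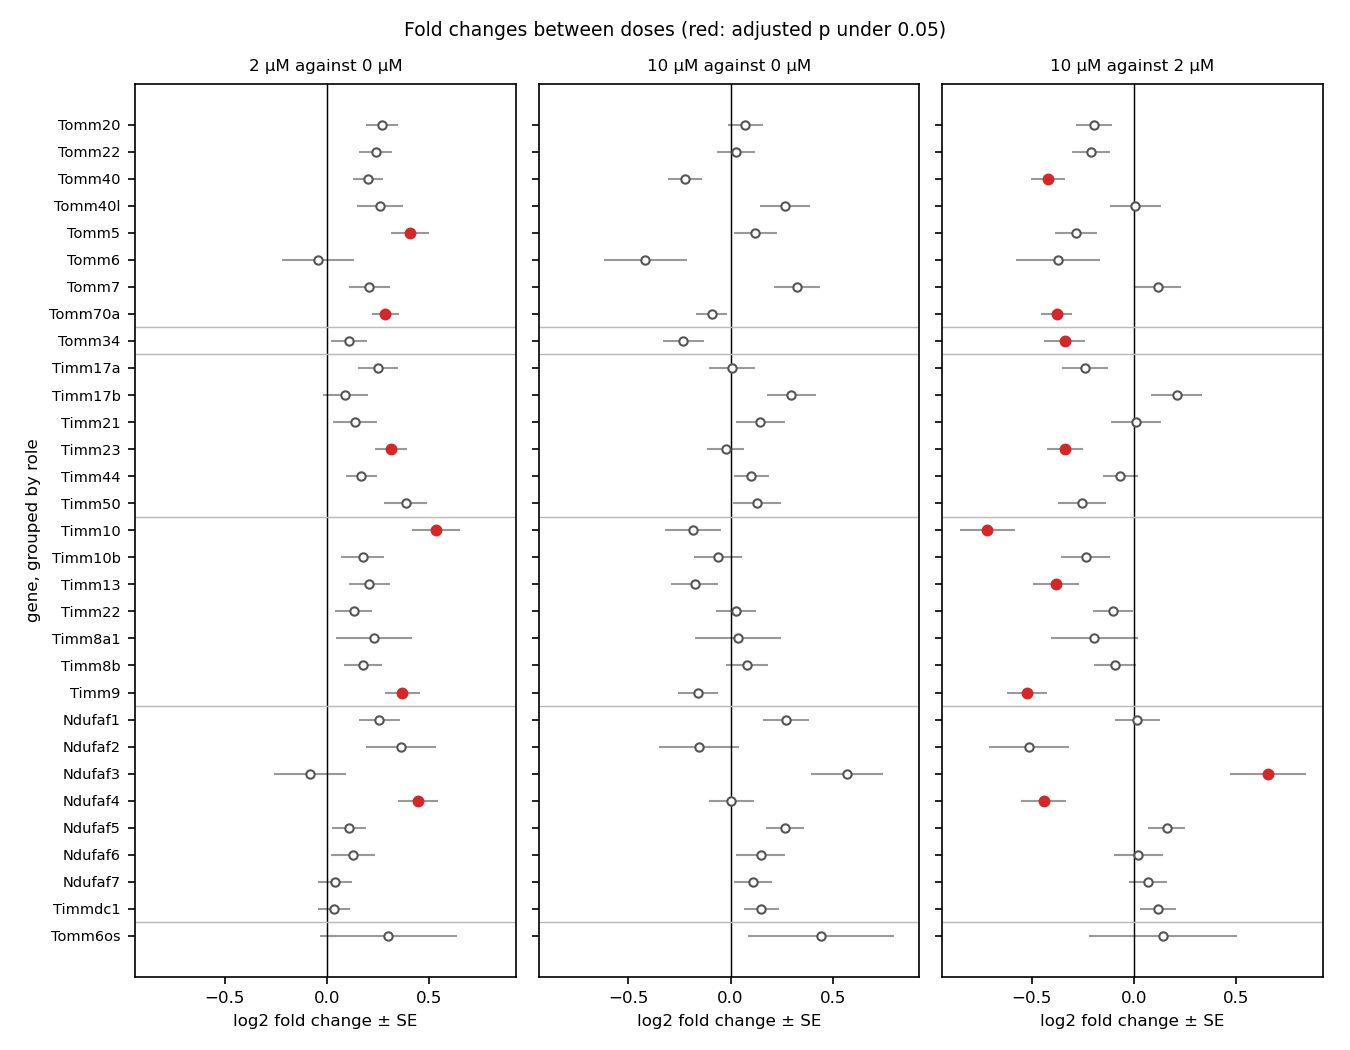
Each panel plots the log2 fold change (x axis) of the 31 members tested (y axis, grouped by role) in 1 comparison of doses, with bars of ± 1 standard error from edgeR and filled red points for an adjusted p under 0.05. At 2 µM against 0 µM 29 of 31 points lie right of 0, at 10 µM against 2 µM 20 lie left of it, and no point is filled at 10 µM against 0 µM.

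In the TOM complex, 2 of 8 tested genes rose at 2 µM (all genes 1.51%) and 2 fell between 2 µM and 10 µM (all genes 11.9%). The median log2 fold change was 0.25 at 2 µM and 0.05 at 10 µM against 0 µM. Tomm70a, the receptor that takes up carrier precursors with their chaperones, had 245, 220.2 and 228 CPM in the 0 µM libraries, 293, 275 and 277 CPM at 2 µM, and 218 and 215 CPM at 10 µM. All 2 µM libraries were above, and both 10 µM libraries below, every untreated library. Its log2 fold change was 0.29 ± 0.07 (SE) at 2 µM (adjusted p = 0.0405) and -0.09 ± 0.08 at 10 µM (adjusted p = 0.451), and 10 µM lay below 2 µM by -0.38 ± 0.08 (adjusted p = 0.00519). The call at 2 µM was lost in 7 of 19 alternative settings, all of them with a library left out.

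Tomm40, the beta-barrel pore of the outer membrane, had 69.6, 61.9 and 62.0 CPM at 0 µM, 75.3, 73.3 and 73.3 CPM at 2 µM, and 52.9 and 57.6 CPM at 10 µM. The libraries of the 3 doses did not overlap, with 2 µM highest and 10 µM lowest. Against 0 µM the log2 fold changes were 0.20 ± 0.07 (adjusted p = 0.147) and -0.22 ± 0.08 (adjusted p = 0.102), and 10 µM against 2 µM gave -0.42 ± 0.08 (adjusted p = 0.00473). Tomm5, a small subunit of the complex, had 30.7, 24.2 and 26.5 CPM at 0 µM, 35.6, 34.97 and 36.3 CPM at 2 µM, and 28.9 and 29.6 CPM at 10 µM. All 2 µM libraries stood above both other groups, and the 10 µM libraries lay among the controls. It rose by 0.40 ± 0.09 on the log2 scale at 2 µM (adjusted p = 0.0374), with -0.28 ± 0.10 from 2 µM to 10 µM (adjusted p = 0.0702). The call of the rise was lost in 6 of 19 alternative settings.

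The presequence receptors Tomm20 (177 to 205 CPM at 0 µM) and Tomm22 (106 to 126 CPM) did not pass the test, with log2 fold changes at 2 µM of 0.27 ± 0.08 (adjusted p = 0.0774) and 0.24 ± 0.08 (adjusted p = 0.129), though every 2 µM library exceeded every control for both. Without the first control both were called, at 0.35 ± 0.07 (adjusted p = 0.01) and 0.31 ± 0.08 (adjusted p = 0.0265). Tomm7, a further small subunit, had 94.6, 71.9 and 72.8 CPM at 0 µM and 95.2 and 103 CPM at 10 µM, a log2 difference of 0.32 ± 0.11 (adjusted p = 0.0806). The first control reached the level of the treated libraries, and without it the gene was called. Tomm40l, a paralog of Tomm40, gave 0.26 ± 0.11 and 0.27 ± 0.12 at 2 µM and 10 µM. Tomm6 gave -0.04 ± 0.18 and -0.42 ± 0.20, and its libraries at 2 µM spread from 15.9 to 26.0 CPM. Tomm6 shares 219 exonic bases with Tomm6os on the opposite strand, and Tomm40l 2160 with Nr1i3. The setting for strand in the counting is not given in the sources used here, so that reads of these pairs may not have been told apart. Tomm6os had 0.842 to 2.08 CPM over all libraries with overlapping groups.

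Tomm34, a co-chaperone in the cytosol that binds precursor proteins with the chaperones Hsp70 and Hsp90, had 40.5, 39.3 and 42.8 CPM at 0 µM, 48.7, 41.2 and 42.5 CPM at 2 µM, and 37.1 and 32.4 CPM at 10 µM. Both 10 µM libraries were the lowest of all. The log2 fold change was 0.11 ± 0.09 at 2 µM (adjusted p = 0.514), -0.23 ± 0.10 at 10 µM (adjusted p = 0.153) and -0.34 ± 0.10 between the doses (adjusted p = 0.0318). This last call was lost without the first 2 µM or the second 10 µM library and with scaling by total counts in place of TMM.

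In the TIM23 complex all 6 genes had positive log2 fold changes at 2 µM (all genes 48.2%), with a median of 0.21. Past the test, 1 gene was higher (all genes 1.51%). Timm23, which forms the core of the inner membrane translocase with Timm17, had 43.5, 37.3 and 40.1 CPM at 0 µM, 49.98, 50.2 and 49.5 CPM at 2 µM, and 37.9 and 41.1 CPM at 10 µM. The 2 µM libraries stood together above all others, while the 10 µM libraries overlapped with the controls. It rose by 0.31 ± 0.08 at 2 µM (adjusted p = 0.0496) and fell by 0.34 ± 0.09 from 2 µM to 10 µM (adjusted p = 0.0189). The rise lies at the limit and was lost in 11 of 19 alternative settings. The drop was lost without the second 2 µM or the first 10 µM library and with scaling by total counts in place of TMM. Of its 75-base windows, 50.5% occur elsewhere in annotated transcripts, mostly in Gm10273, so that uniquely mapped fragments may undercount it. Timm50, the presequence receptor of the complex, gave 0.38 ± 0.10 at 2 µM (adjusted p = 0.0655), with 34.3, 26.0 and 29.1 CPM at 0 µM and 38.3 to 38.9 CPM at 2 µM. It was called with DESeq2 (adjusted p = 0.0462) and, in edgeR, without the first control (0.49 ± 0.09, adjusted p = 0.00978). Timm44, which ties the import motor to the channel, gave 0.17 ± 0.08, and Timm21, which contacts the TOM complex, 0.14 ± 0.11.

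Timm17a and Timm17b are paralogs and alternative partners of Timm23. Timm17a had 38.6 to 45.9 CPM at 0 µM and 38.8 and 43.9 CPM at 10 µM, and Timm17b 14.1 to 19.2 CPM and 20.4 and 19.9 CPM. The log2 ratio of Timm17a to Timm17b counts within a library was 1.31 ± 0.15 (SD, n = 3) at 0 µM, 1.48 ± 0.11 (n = 3) at 2 µM and 1.03 ± 0.15 (n = 2) at 10 µM. The log2 ratio of Tomm40l to Tomm40 was -1.41 ± 0.05, -1.36 ± 0.16 and -0.93 ± 0.12 at the same doses, so that the 10 µM libraries lay apart from the others on both measures. That of Timm8a1 to Timm8b was -3.90 ± 0.11, -3.89 ± 0.37 and -4.00 ± 0.47, with the groups overlapping. In two-sided exact permutation tests the Timm17a to Timm17b and Tomm40l to Tomm40 ratios at 10 µM gave p = 0.2 against 0 µM and against 2 µM, which is the smallest p that 3 against 2 libraries allow (0.1 for 3 against 3). Over the 9 comparisons the adjusted p was 0.45 for these and 0.54 to 1 for the rest, so that none could be called at this number of libraries.

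**Figure D3:**
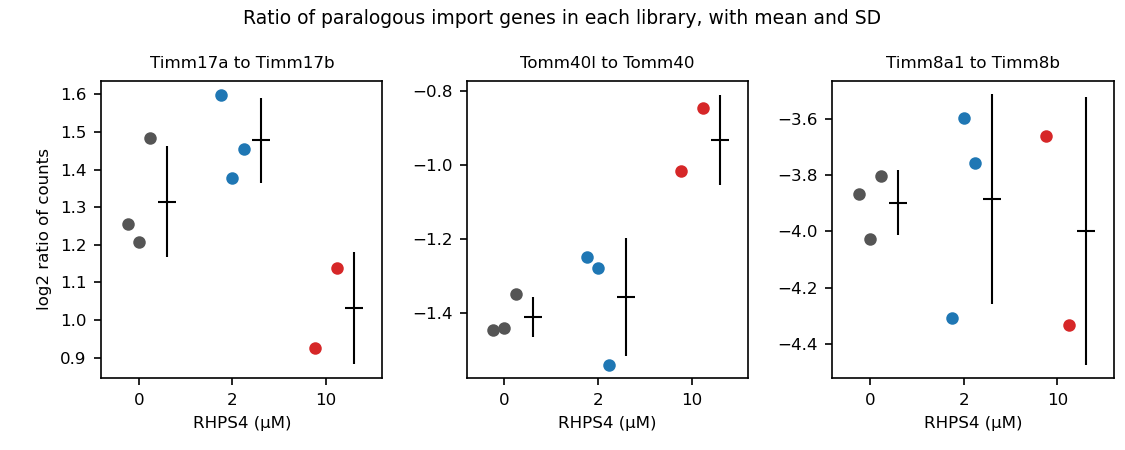
The 3 panels plot the log2 ratio of counts of 2 paralogs (y axis, each panel with its own range) by RHPS4 dose in µM (x axis), with a point for each library and a cross for the mean ± SD. The 10 µM libraries lie lowest for Timm17a to Timm17b and highest for Tomm40l to Tomm40, and the groups overlap for Timm8a1 to Timm8b.

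The TIM22 complex and small TIM chaperones included Timm10, the member with the largest drop between the doses. All 7 tested genes had positive log2 fold changes at 2 µM against 0 µM and negative ones at 10 µM against 2 µM, with medians of 0.21 and -0.24. Past the test, 2 rose at 2 µM (all genes 1.51%) and 3 fell between the doses (all genes 11.9%). Timm10, which forms a chaperone ring with Timm9, had 16.2, 16.1 and 12.4 CPM at 0 µM, 21.3, 22.7 and 19.97 CPM at 2 µM, and 12.3 and 13.6 CPM at 10 µM. All 2 µM libraries exceeded all others, and the 10 µM libraries lay around the lowest control. It rose by 0.53 ± 0.12 at 2 µM (adjusted p = 0.0327) and fell by 0.72 ± 0.13 from 2 µM to 10 µM, a fold of 1.65 (adjusted p = 0.00361). The call of the rise was lost in 5 of 19 alternative settings.

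Timm9, the partner of Timm10, had 20.4, 21.4 and 19.97 CPM at 0 µM, 28.03, 25.5 and 26.2 CPM at 2 µM, and 19.5 and 17.3 CPM at 10 µM. The doses did not overlap, with 10 µM just under the lowest control. The log2 fold change was 0.37 ± 0.09 at 2 µM (adjusted p = 0.0391), -0.16 ± 0.10 at 10 µM (adjusted p = 0.314) and -0.52 ± 0.10 between the doses (adjusted p = 0.00346). The call at 2 µM was lost in 9 of 19 alternative settings, among them DESeq2 (adjusted p = 0.0568) and the replicate block (adjusted p = 0.0575). Timm13, which forms a chaperone with Timm8 proteins, had 44.9, 41.2 and 37.8 CPM at 0 µM, 50.9, 50.5 and 41.4 CPM at 2 µM, and 38.0 and 34.7 CPM at 10 µM. The third 2 µM library lay among the controls, and both 10 µM libraries were below all 2 µM libraries. Its log2 fold change was -0.38 ± 0.11 between the doses (adjusted p = 0.0321) and 0.21 ± 0.10 at 2 µM against 0 µM (adjusted p = 0.26). The call between the doses was lost without the first or second 2 µM or the second 10 µM library and with scaling by total counts in place of TMM.

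The remaining genes of this group did not pass the test with all 8 libraries. At 2 µM they gave log2 fold changes of 0.13 ± 0.09 (Timm22, the channel of the carrier translocase), 0.17 ± 0.09 (Timm8b), 0.17 ± 0.11 (Timm10b, which joins the small TIM chaperones to TIM22) and 0.23 ± 0.19 (Timm8a1). Without the first control Timm8b (0.28 ± 0.08, adjusted p = 0.04) and Timm10b (0.29 ± 0.09, adjusted p = 0.0436) were called at 2 µM, and Timm10b also between the doses (-0.27 ± 0.09, adjusted p = 0.0411). Timm8a1 had 3.88 to 6.2 CPM and shares 39.9% of its 75-base windows with other transcripts, mostly Gm9797, and Timm10b shares 172 exonic bases with Arfip2 on the opposite strand. The gene under an older name, 1810026J23Rik (Timm29, a subunit of TIM22), was lower at 10 µM than at 0 µM (-0.31 ± 0.09, adjusted p = 0.0481) and than at 2 µM (-0.35 ± 0.09, adjusted p = 0.0192).

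**Figure D4:**
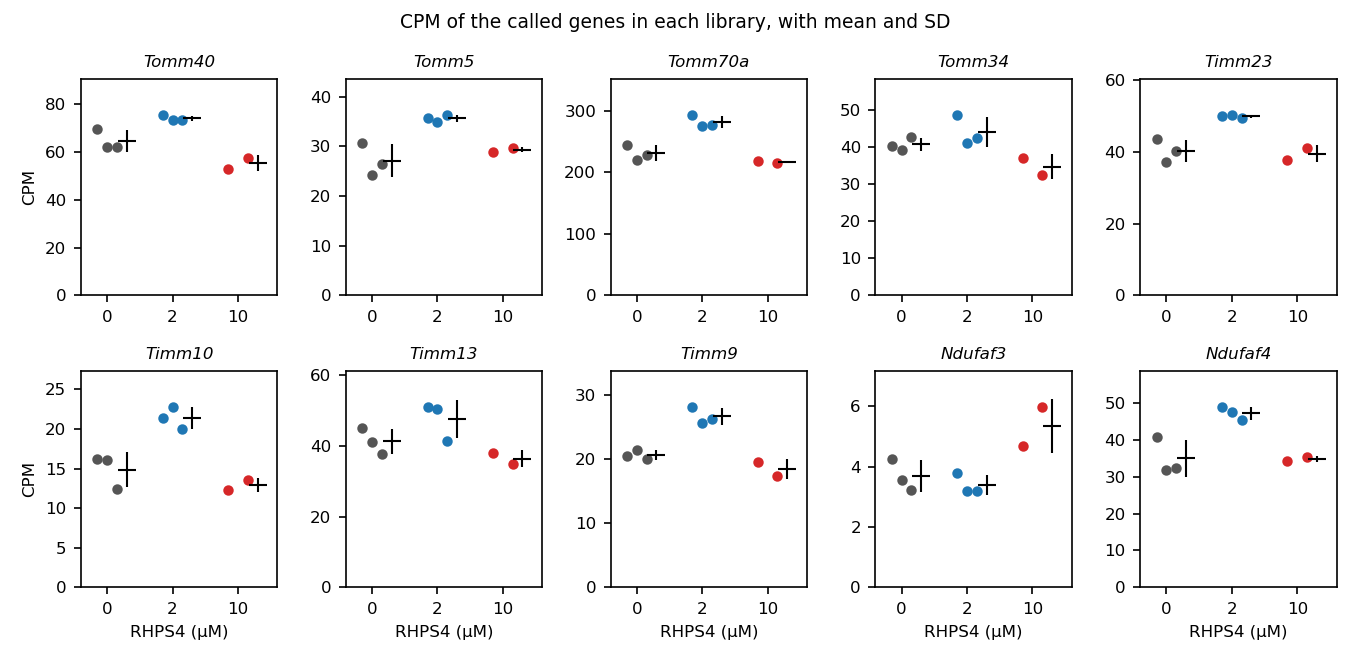
The 10 panels plot the CPM (y axis, from 0) of each member called in any comparison by RHPS4 dose in µM (x axis), with a point for each library and a cross for the mean ± SD. In 7 panels every 2 µM library lies above every other library, in those of Tomm34 and Timm13 the 2 µM libraries overlap with the controls, and Ndufaf3 is highest at 10 µM.

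Among the complex I assembly genes the median log2 fold change was 0.12 at 2 µM and 0.15 at 10 µM against 0 µM. Of the 8, 7 were positive in each (all genes 48.2% and 52.1%), and 1 was higher past the test, at 2 µM (all genes 1.51%). Ndufaf4 and Ndufaf3 act together on an early intermediate of the complex and moved in different directions between the doses. Ndufaf4 had 40.7, 31.8 and 32.4 CPM at 0 µM, 48.8, 47.4 and 45.3 CPM at 2 µM, and 34.1 and 35.3 CPM at 10 µM. All 2 µM libraries were above all others, and the 10 µM libraries lay between the first control and the rest. It rose by 0.44 ± 0.10 at 2 µM (adjusted p = 0.0327) and fell by 0.44 ± 0.11 from 2 µM to 10 µM (adjusted p = 0.0148). The call of this drop was lost without the first 10 µM library and with scaling by total counts in place of TMM. That of the rise was lost in 5 of 19 alternative settings.

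Ndufaf3 was low, with 4.26, 3.57 and 3.22 CPM at 0 µM, 3.79, 3.18 and 3.21 CPM at 2 µM, and 4.70 and 5.97 CPM at 10 µM. Both 10 µM libraries were above all others. Its log2 fold change was -0.08 ± 0.18 at 2 µM (adjusted p = 0.824), 0.57 ± 0.18 at 10 µM (adjusted p = 0.0555) and 0.65 ± 0.19 between the doses (adjusted p = 0.0264), a call lost with DESeq2, with the replicate block, and on leaving out the second 2 µM, the third 2 µM or the second 10 µM library. Ndufaf2, which acts late in assembly, had 20.03, 12.2 and 12.8 CPM at 0 µM, 19.4, 20.9 and 16.0 CPM at 2 µM, and 13.3 and 12.8 CPM at 10 µM. Only the first control reached the 2 µM level, and the difference of 10 µM from 2 µM was -0.51 ± 0.20 (adjusted p = 0.0784) with all libraries in edgeR. It passed with DESeq2 (adjusted p = 0.0281), with the replicate block (adjusted p = 0.0334) and without the first control (adjusted p = 0.00669), and without that library Ndufaf2 was also higher at 2 µM than at 0 µM (0.58 ± 0.12, adjusted p = 0.0118). Ndufaf1, a factor for the membrane arm, gave 0.26 ± 0.10 and 0.27 ± 0.11 at 2 µM and 10 µM. Ndufaf5, which hydroxylates a subunit, gave 0.11 ± 0.08 and 0.27 ± 0.09, and Ndufaf7, which methylates one, 0.04 ± 0.08 and 0.11 ± 0.09. Ndufaf6 gave 0.13 ± 0.11 and 0.15 ± 0.12, and Timmdc1, also a factor for the membrane arm, 0.03 ± 0.08 and 0.15 ± 0.09. For these 5 every 10 µM library was above every control, and no adjusted p was under 0.05. The gene 1810043H04Rik (Ndufaf8) gave 0.10 ± 0.14 and -0.01 ± 0.15.

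The subunits that these factors assemble come from both genomes. Of 7 mtDNA-encoded subunits of complex I, 6 were tested, of which 4 were lower at 2 µM and 6 at 10 µM, with median log2 fold changes of -1.31 and -1.96. Of all genes, 2.65% were lower at 2 µM and 7.11% at 10 µM. ND5, with the largest drop of the 6 at 2 µM, had 972 to 1705 CPM at 0 µM, 309 to 455 CPM at 2 µM and 292 and 384 CPM at 10 µM. ND1, with the smallest, gave -0.49 ± 0.15 at 2 µM (adjusted p = 0.0877). ND3 had only 2 to 5 counts per library at 2 µM and 4 and 1 at 10 µM, and the median at 2 µM rests in part on it. The nuclear subunits were taken by symbol alone (Ndufa, Ndufb, Ndufc, Ndufs or Ndufv followed by a digit, without Ndufa4l2). Whether each gene so taken, Ndufa4 among them, encodes a part of complex I was not checked. Ndufs5 had 0 counts in every library and was not tested. Of 35 tested, 1 was lower at 2 µM (Ndufv3, an accessory subunit, -0.38 ± 0.07, adjusted p = 0.0194) and 1 higher at 10 µM (Ndufa7, also accessory, 0.30 ± 0.08, adjusted p = 0.0343). Over all genes these shares were 2.65% and 6.81%. Positive values numbered 30 at 2 µM (85.7%, all genes 48.2%) and 27 at 10 µM (77.1%, all genes 52.1%), with medians of 0.13 and 0.09. Among 7 other assembly factors, Foxred1, a flavoprotein, rose at 2 µM by 0.43 ± 0.09 (adjusted p = 0.0303) and at 10 µM by 0.69 ± 0.10 (adjusted p = 0.00126). No other gene of that list passed the test, and its medians were 0.16 and 0.12.

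**Figure D5:**
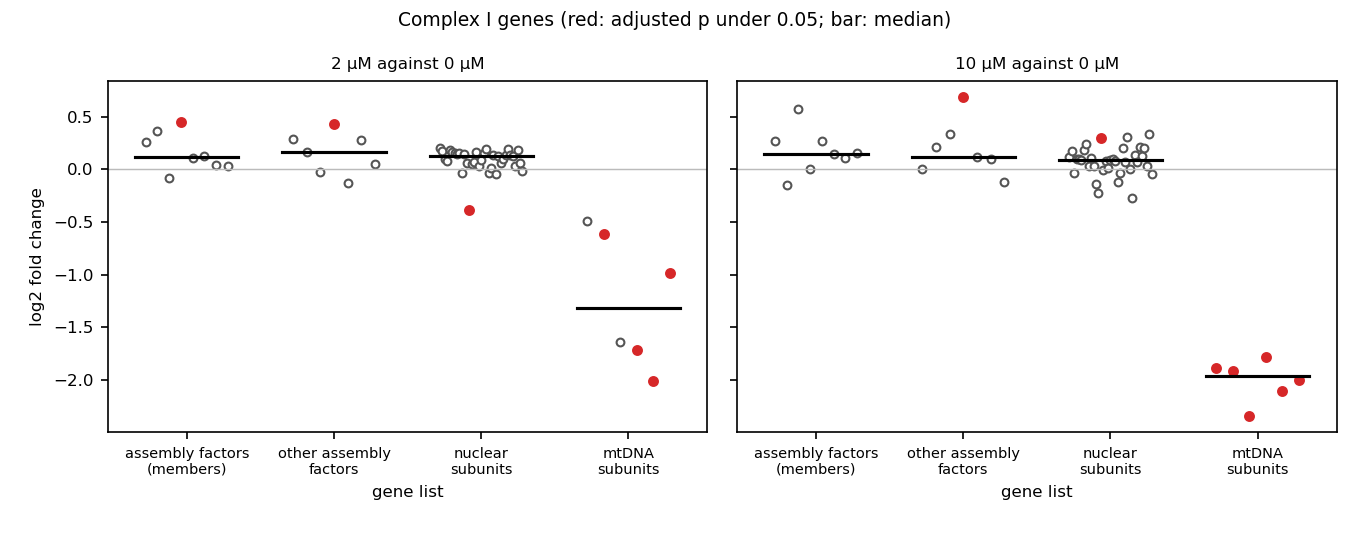
The log2 fold change (y axis) at 2 µM and at 10 µM against 0 µM is plotted for 4 lists of complex I genes (x axis), with a point for each gene tested, red for an adjusted p under 0.05, and a bar for the median. The 8 assembly genes described here and the nuclear subunits (taken by symbol) lie near 0, most of them just above it. The 6 tested mtDNA subunits, among them ND3 with few counts, lie below 0, at medians of -1.31 and -1.96.

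Other genes work beside the translocases. In the PAM motor and among TIM23 partners all 7 genes were positive at 2 µM (median 0.19, all genes 48.2% positive). Of these, 1 was higher past the test (all genes 1.51%), Dnajc19 (0.34 ± 0.08, adjusted p = 0.0374), a J-protein of the motor. At 10 µM Hspa9, the mitochondrial Hsp70 that drives it, rose from 842 to 968 CPM at 0 µM to 1249 and 1144 CPM (0.43 ± 0.10, adjusted p = 0.0128), and Grpel2, a nucleotide exchange factor, was lower at 10 µM than at 2 µM (-0.32 ± 0.09, adjusted p = 0.0289). In the sorting and disulfide relay (SAM and MIA) list, all 7 were positive at 2 µM (median 0.16, all genes 48.2% positive). Chchd4, the oxidoreductase that traps small TIM proteins in the intermembrane space, had 23.5, 19.9 and 20.96 CPM at 0 µM, 32.1, 32.4 and 28.5 CPM at 2 µM, and 20.3 and 23.2 CPM at 10 µM. It was highest in the 2 µM libraries and overlapped between 0 µM and 10 µM, with 0.54 ± 0.10 at 2 µM (adjusted p = 0.0151) and -0.51 ± 0.11 from 2 µM to 10 µM (adjusted p = 0.00704). Mtx2, a metaxin of the outer membrane, was also lower at 10 µM than at 2 µM (-0.27 ± 0.08, adjusted p = 0.0398). Of 9 genes for processing and insertion, Aifm1, a partner of Chchd4, was lower at 10 µM than at 0 µM (-0.32 ± 0.10, adjusted p = 0.048, all genes 7.11%). The medians of the list were 0.11 at 2 µM and 0.07 at 10 µM.

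Levels between genes were compared as CPM per kb of exon. At 0 µM the highest were Timm8b (138 ± 16.0 CPM per kb, SD, n = 3), Tomm7 (70.9 ± 11.4) and Tomm22 (70.0 ± 5.91), of which the last pair lay within their spread. Timm44, Tomm70a, Tomm40 and Tomm20 followed between 38.0 and 39.9 CPM per kb and did not differ beyond their spread. The lowest tested members were Tomm6os (0.465 ± 0.216), Ndufaf3 (2.47 ± 0.36) and Timm8a1 (3.36 ± 0.51). Summed over all 33 members, the level was 1366 ± 114 CPM at 0 µM (n = 3), 1606 ± 56.8 CPM at 2 µM (n = 3) and 1388 ± 39.4 CPM at 10 µM (n = 2). The first control, at 1497 CPM, lay between the other controls (1290 and 1311 CPM) and the lowest 2 µM library (1554 CPM).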

How the data were processed

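Per the labels and the study's methods, total RNA was depleted of nuclear ribosomal RNA, made into stranded libraries, sequenced, trimmed (Trim Galore, cutadapt), aligned to mm10 with STAR 2.5.2a and counted with featureCounts. The authors deposited raw counts for each gene in each library, with no scaling. The annotation and the strand setting of the counting are not given in the sources used here. In R 4.3.3, edgeR 4.0.16 was used with TMM factors, the default filterByExpr and the quasi-likelihood test, adjusted after Benjamini and Hochberg. Dose was the only factor, all 8 libraries entered the fit, and 14296 genes were tested. The standard error was the log2 fold change divided by the square root of F. The procedure was also run on simulated counts, which had the same spread setting for all genes and no library standing apart. That run does not bear on calls that depend on single libraries. Ratios used 0.5 added to each count. Exon lengths and shared 75-base windows came from GENCODE M21, which matched 98.23% of genes by symbol, and promoters from RefSeq. Other steps used Python 3.11.15 and scipy 1.17.1.

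The members, their roles, the gene lists and the tests were chosen with earlier results of these data known. All members are named, those past an adjusted p of 0.05 in any comparison with every library, and from other lists up to 4 genes with the smallest p among those past it. The settings varied were the scaling (RLE, nuclear genes only, total counts only), the filter (none, or 10 counts in all libraries), the tool (DESeq2 1.42.0), the groups fitted, the replicate block, a correction for GC content and the set of libraries. Thinning to the smallest library was chosen after seeing the data.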

Additional observations from a re-analysis of the deposited data

Results flagged for a closer look

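In 3 members every 2 µM library lay on one side of every 0 µM library and every 10 µM library on the other. These were Timm9, Tomm70a and Tomm40, each above the controls at 2 µM and below them at 10 µM, with log2 differences of 10 µM from 2 µM of -0.52, -0.38 and -0.42 (adjusted p of 0.00346, 0.00519 and 0.00473 in edgeR's quasi-likelihood test). That is 9.68% of the 31 members tested, beside 7.38% of the 14296 genes tested, so that the share is near that of all genes. None of the 3 passed the test at 10 µM against 0 µM.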

How the results depend on the processing

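The 10 µM group had 2 libraries, replicates may be technical, and the exact permutation tests could not reach an adjusted p of 0.05. Of the 285 alternative values of the 15 called log2 fold changes, 224 kept and 61 lost their call, and 0 turned. Timm9, Timm10, Tomm40 and Tomm70a kept their call between 10 µM and 2 µM in all 19 settings.

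The members called numbered 6 at 2 µM and 0 at 10 µM, each against 0 µM, and 9 for 10 µM against 2 µM. With each library left out in turn they ran from 0 to 16, from 0 to 4 and from 6 to 15, and DEGs between the doses from 0 to 1. Scaling by total counts alone, without TMM, gave 10, 15 and 7 members (32.3, 48.4 and 22.6%, beside 9.56, 28.6 and 25.2% of all genes; 3 of the 7 were higher), with 1 DEG at 10 µM and 0 between the doses. It also moved the median of all genes to 0.07, 0.23 and 0.16 on the log2 scale. Relative to that, the member medians lay at 0.22, 0.06 and -0.22, as under TMM (0.22, 0.06 and -0.22). Scaling moves all genes of a library by about the same amount, so that this agreement follows from the subtraction. It is no test of the shift. At least 10 counts in every library gave 1 member at 10 µM (Ndufaf3, 3.23%, beside 17.5% of all genes).

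The replicate block gave 3 members at 2 µM (9.68%, all genes 3.33%) and 9 between the doses (29%, all genes 22.1%). With GC correction as well there were 2 DEGs between the doses. Same-numbered libraries correlated in their deviations by 0.0845 to 0.199 between 0 µM and 2 µM, and by -0.145 to -0.0212 where 1 was of 10 µM. Libraries of different numbers were not compared, so that whether the numbers pair them was not tested. With each library left out, the log2 ratio of Tomm40l to Tomm40 at 10 µM against 0 µM ran from 0.39 to 0.57, that of Timm8a1 to Timm8b from -0.43 to 0.24 and that of Timm17a to Timm17b from -0.39 (without the second 10 µM library) to -0.18 (without the first), and the block moved no ratio beyond its spread. Loops of up to 12 bases gave 6 members with a G4 motif in place of 4. Where no value is given for it, the cause of a change was not tested.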
